A study of Mus musculus with 8 samples.

Results

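The genes described here are 10 surface ligands and receptors through which a dendritic cell speaks to a lymphocyte: the costimulators and maturation molecules Cd40, Cd80, Cd86, Cd83 and Icosl, the checkpoint ligands Cd274 and Pdcd1lg2, and the TNF family ligands Tnfsf4, Tnfsf9 and Tnfsf10. They were picked by gene name from 34844 named features on the array, by a rule that uses no measured value, though with earlier results of these data known. The 10 genes had 13 probes, and the probe of highest mean signal stood for each gene. Of the 10, 8 were tested for a difference between groups, because their probe lay well above background on 4 or more arrays. Pdcd1lg2 and Tnfsf4 were too dim.

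Plasmacytoid dendritic cells (pDC), a dendritic cell type specialised in making type I interferon, were grown in culture from bone marrow precursors of female BALB/c mice with mFlt3-L, the mouse Flt3 ligand. They were sorted with magnetic beads and flow cytometry into Sca-1- and Sca-1+ cells and lysed without a stated stimulus, and their polyA RNA was measured on single-colour Agilent arrays, 4 samples per group. The groups differ by surface Sca-1 alone as far as the labels say, so they are sorted fractions of cultured cells and not mutants, and mouse age is not stated in the sources used here. The series asks whether Sca-1 marks stages of pDC development that differ in function.

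A T cell needs a signal from its antigen receptor and a second signal from costimulatory ligands. CD80 and CD86 engage CD28 or the inhibitory CTLA-4, ICOS ligand engages ICOS, and the checkpoint ligands PD-L1 (Cd274) and PD-L2 (Pdcd1lg2) engage the inhibitory receptor PD-1. The TNF family ligands OX40L (Tnfsf4) and 4-1BBL (Tnfsf9) sustain T cell responses, whereas TRAIL (Tnfsf10) can trigger death of cells that bear its receptors. In pDC, the costimulators typically rise on activation, and TRAIL and PD-L1 are known to be inducible by interferon.

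The sequences behind the 3 genes that the results turn on are shown first, because each gene is read from a single 60-base probe. The first 30 bases of each probe are printed 5′ to 3′ as deposited, in lower case.
Cd274: ttgatgagtctcatgttaatgtcttgtttg
Tnfsf10: gggaaatgttaaactttgtaaactctgaaa
Tnfsf9: caagactttatataattcactagatagcat
On mouse build mm9, the Cd274 probe lies at chr19:29462363-29462422, the Tnfsf10 probe at chr3:27238508-27238567 and the Tnfsf9 probe at chr17:57247062-57247121. The exon or untranslated region under each probe was not analysed here.

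The promoters of Cd274 and Tnfsf10, the genes that were higher in Sca-1+ pDC once the slide was taken into account, are given as the 250 bases before the RefSeq start (GRCm38.p6, plus strand, 5′ to 3′).
Cd274, chr19:29367188-29367437: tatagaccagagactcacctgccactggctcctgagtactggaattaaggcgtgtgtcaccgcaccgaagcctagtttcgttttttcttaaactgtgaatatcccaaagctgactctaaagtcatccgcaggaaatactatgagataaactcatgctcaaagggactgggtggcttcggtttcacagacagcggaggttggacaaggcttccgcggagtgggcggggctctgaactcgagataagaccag
Tnfsf10, chr3:27316827-27317076: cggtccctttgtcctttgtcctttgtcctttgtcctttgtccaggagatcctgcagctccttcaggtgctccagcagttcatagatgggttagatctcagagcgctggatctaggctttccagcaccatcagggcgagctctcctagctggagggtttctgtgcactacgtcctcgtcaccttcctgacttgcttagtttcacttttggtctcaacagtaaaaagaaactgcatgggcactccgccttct
No letters are in capitals because no searched motif was found. RefSeq promoters of 300 bases (250 before and 50 after the start) matched 5 of the 10 genes, and both strands were searched for an interferon-response core (GAAA, any 2 bases, GAAA), an NF-kB site (GGGA, any 4 bases, CC) and a GAS site (TTCNNNGAA), any of which may overlap another in a sequence. Of 32851 mouse promoters of that length, 3.44% held the interferon-response core, 20.7% the NF-kB site and 8.3% the GAS site. In Cd274 and Tnfsf10, 0 matches were found for any of them. An NF-kB match was present in Icosl (GGGATGGGCC, bases -71 to -62 from the start), Cd80 (GGGAACCACC, -210 to -201) and Pdcd1lg2 (GGGGAATCCC on the plus strand, matched on the minus strand, -244 to -235). A match of letters does not show a bound site.

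Levels below are log2 processed signals relative to the 75th percentile of the same array, so a level of 0 equals that percentile. They compare samples for 1 probe and do not rank genes against each other. Between 45.9% and 54.9% of spots were well above background per array, and the 75th percentile of processed signal ran from 152 to 434, with both replicate 4 arrays the brightest at 434 (Sca-1-) and 396 (Sca-1+). Samples with the same replicate number shared a slide, numbered alike, with the Sca-1- sample always in position 1 and the Sca-1+ sample in position 2, so array position and group cannot be told apart. Ly6a, which encodes Sca-1, was 25.1-fold higher in the samples labelled Sca-1+ (limma, adjusted p = 0.000608). All 12 pDC markers were well above background on all 8 arrays, and their summed linear signal relative to the 75th percentile was 2030 to 2871 in Sca-1- and 2357 to 3029 in Sca-1+ samples.

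Sca-1- replicate 4 and Sca-1+ replicate 2 stood apart in genes that bear on the costimulators. In Sca-1- replicate 4, the migration receptor gene Ccr7 was at 2.19, against -0.30 to 0.49 on the other 7 arrays. The cytokine subunit gene Il12b was at -1.85 there, against -5.97 to -5.22 elsewhere. The macrophage marker Emr1 was at -1.38, against -5.02 to -3.62. Sca-1+ replicate 2 held the highest Batf3, a transcription factor gene of conventional dendritic cells, at -1.46 against -5.69 to -3.57 on the other 7 arrays. Cd81, a tetraspanin gene, was at -0.79 there and -1.76 in Sca-1- replicate 4, against -4.45 to -3.42 on the other 6 arrays. Lyz2, a lysozyme gene of myeloid cells, showed the same pair of samples on top, at -0.32 in Sca-1- replicate 4 and -1.52 in Sca-1+ replicate 2, against -5.47 to -2.78 elsewhere. These genes were singled out after their values were seen. Among them, only Ccr7 was well above background on every array. Il12b was so on 1 Sca-1- and 0 Sca-1+ arrays, Emr1 on 1 and 1, and Batf3 on 2 and 1. Cd81 was so on 2 and 2, and Lyz2 on 3 and 2. Their signals on the remaining arrays are bounds, so the size of those gaps is not measured. In bulk RNA, a different number of cells of a type and a different amount of RNA per cell cannot be told apart.

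With the groups compared unpaired, 0 of the 8 tested genes passed an adjusted p of 0.05 (limma, Benjamini-Hochberg over 19266 tested genes), while 3 (Cd274, Tnfsf10 and Tnfsf9) had an unadjusted p under 0.05. Over all tested genes, 1.74% passed, 0.125% as higher and 1.62% as lower in Sca-1+ pDC. With the slide as a block, 2 of the 8 passed, Cd274 and Tnfsf10, both higher in Sca-1+ pDC. In that fit 6.38% of all tested genes passed, 2.16% as higher and 4.22% as lower. The median difference of the 8 genes was 0.22 on the log2 scale, against 0.03 over all tested genes, with 5 differences above 0 and 3 below. The labels do not state that replicates are separate cultures or animals, so the p-values describe the spread among these samples, which may be technical.

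**Figure D1:**
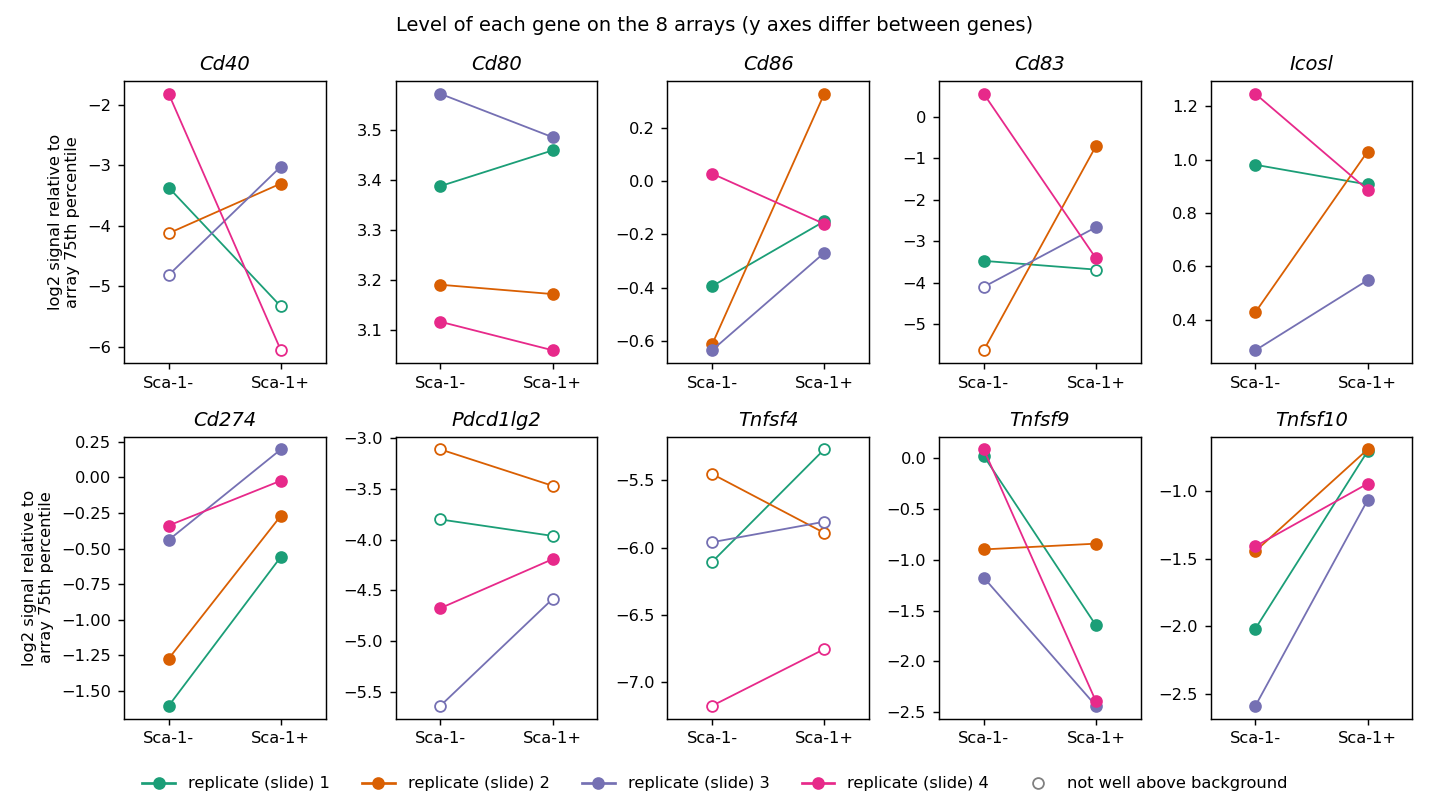
Level of each of the 10 genes (y axis, log2 signal relative to the array's 75th percentile, scaled separately per gene) in Sca-1- and Sca-1+ pDC, with lines joining samples of the same slide. Filled points are well above background; Cd274 and Tnfsf10 were higher in Sca-1+ pDC on all 4 slides, and the lines of Cd83 and Cd40 cross widely.

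Tnfsf10, which encodes the death ligand TRAIL, was 2.01-fold higher in Sca-1+ pDC. Its level was -2.02, -1.44, -2.59 and -1.41 in the Sca-1- samples of slides 1 to 4, against -0.71, -0.69, -1.07 and -0.95 in their Sca-1+ partners. Every Sca-1+ sample lay above every Sca-1- sample, and Tnfsf10 was the only one of the 8 tested genes whose groups did not overlap. The groups were likewise apart for 7.01% of all tested genes, with Sca-1+ the higher in 1.9% and the lower in 5.11%. The log2 difference was 1.01 ± 0.27 (SE, n = 4 per group, 95% confidence interval 0.40 to 1.62), with an adjusted p of 0.161 unpaired and 0.0413 with the slide as a block (limma). Within slides 1 to 4 it was 1.31, 0.75, 1.52 and 0.46. The Sca-1+ samples lay close together, with an SD of 0.18 against 0.56 among Sca-1- samples. Under normexp background correction the difference was 0.61, still above 0.

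Cd274, which encodes the checkpoint ligand PD-L1, was 1.68-fold higher in Sca-1+ pDC. Its level was -1.60, -1.27, -0.44 and -0.34 in the Sca-1- samples of slides 1 to 4, against -0.56, -0.27, 0.20 and -0.02 in their Sca-1+ partners. The groups overlapped: Sca-1- replicates 3 and 4 lay above Sca-1+ replicate 1. On every slide, however, the Sca-1+ sample was the higher one, by 1.05, 1.00, 0.64 and 0.31. The difference was 0.75 on the log2 scale (SE 0.31 unpaired and 0.14 with the slide as a block, n = 4 per group). Its adjusted p was 0.516 unpaired and 0.0421 with the block (limma). Cd274 and Tnfsf10 were the 2 genes of the 8 that were higher on all 4 slides, as were 18.3% of all tested genes. No gene of the 8 was lower on all 4, as were 18% of all tested genes. The blocked fit still called this pair of genes without both samples of replicate 4. Leaving out replicate 1, 2 or 3 on both sides ended both calls, with blocked adjusted p of 0.135, 0.116 and 0.164 for Cd274 and of 0.142, 0.0905 and 0.158 for Tnfsf10 (limma). Normexp correction gave a Cd274 difference of 0.49.

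Tnfsf9, which encodes 4-1BBL, a ligand that sustains activated T cells, showed the widest mean difference of the 8 genes and in the other direction. Its level was 0.02, -0.90, -1.18 and 0.09 in the Sca-1- samples of slides 1 to 4, against -1.65, -0.84, -2.44 and -2.39 in their Sca-1+ partners. Sca-1+ replicate 2 lay among the Sca-1- samples, and the other 3 Sca-1+ samples lay below all of them. The log2 difference was -1.34 ± 0.43 (SE, n = 4 per group, 95% confidence interval -2.33 to -0.36), 2.53-fold lower in Sca-1+ pDC, and it did not pass the test (limma, adjusted p = 0.287 unpaired and 0.112 with the slide as a block). Within slides 1 to 4 it was -1.67, 0.06, -1.26 and -2.48. Without both samples of replicate 2, the blocked difference was -1.81 with an adjusted p of 0.0439. With the slide as a random block, Tnfsf9 joined Cd274 and Tnfsf10 past the threshold, at an adjusted p of 0.0332. Under normexp correction the difference was -0.83.

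**Figure D2:**
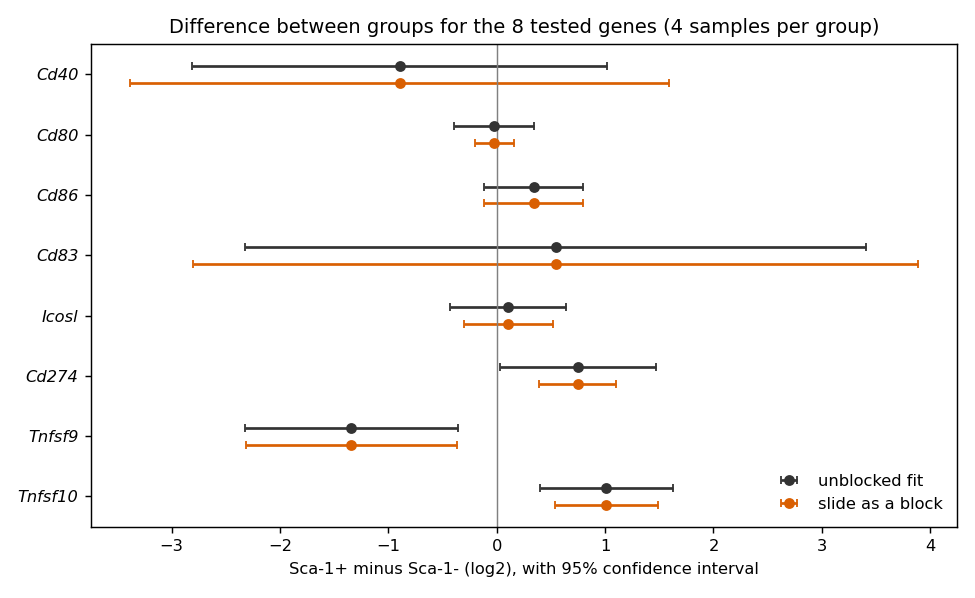
Difference between groups (x axis, Sca-1+ minus Sca-1-, log2) for the 8 tested genes, with 95% confidence intervals from the unpaired fit (black) and the slide-blocked fit (orange). The interval of Cd274 narrows from 0.03 to 1.47 without the block to 0.39 to 1.10 with it, while those of Cd40 and Cd83 span 0 widely in both fits.

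Tnfsf4, which encodes the T cell ligand OX40L, was well above background on 0 of the 8 arrays. Its signals, at levels of -7.18 to -5.27, bound the gene from above and carry no order between samples. Its probe lies at chr1:163348095-163348153 (mm9).

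Among the costimulators proper, Cd80 was the steadiest. Its level was 3.39, 3.19, 3.57 and 3.12 in the Sca-1- samples of slides 1 to 4, against 3.46, 3.17, 3.49 and 3.06 in their Sca-1+ partners. Samples of a slide lay within 0.09 of each other, while slides differed by more. The log2 difference was -0.02 ± 0.16 (SE, n = 4 per group), and its 95% confidence interval of -0.39 to 0.35 leaves room for a change of that size in either direction. Cd80, the CD28 and CTLA-4 ligand, had a second probe that was well above background on 0 arrays. The first 30 bases of each probe are set side by side because the probes read separate places of the gene.
Cd80, probe used, chr16:38486772-38486831 (mm9): aaaggagaggtgcctagtcttactgcaact
Cd80, other probe, chr16:38479343-38479402 (mm9): ttcaatacgactcgcaaccacaccattaag
The level of Cd80 therefore rests on the first of these probes.

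Cd86, the other ligand of CD28 and CTLA-4, was at -0.39, -0.61, -0.63 and 0.03 in the Sca-1- samples of slides 1 to 4, against -0.15, 0.33, -0.27 and -0.16 in their Sca-1+ partners. The lone high Sca-1+ value, in replicate 2, lay 0.48 above the next, and the groups overlapped through Sca-1- replicate 4. The difference of 0.34 ± 0.20 (SE, n = 4 per group, 95% confidence interval -0.12 to 0.80) did not pass the test (limma, adjusted p = 0.781 unpaired and 0.320 with the block). Within slides 1 to 4 it was 0.24, 0.94, 0.37 and -0.19, so slide 4 went against the others. The Cd86 probe lies at chr16:36603961-36604020 (mm9).

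Icosl, which encodes the ligand of ICOS, was at 0.98, 0.43, 0.29 and 1.25 in the Sca-1- samples of slides 1 to 4, against 0.91, 1.03, 0.55 and 0.89 in their Sca-1+ partners. The Sca-1+ values lay inside the Sca-1- range. The difference was 0.11 ± 0.23 (SE, n = 4 per group, 95% confidence interval -0.43 to 0.64). Its sign turned with the slide, at -0.07, 0.60, 0.26 and -0.36 on slides 1 to 4. A second Icosl probe, which carries this gene's name only in the later design of the array, was well above background on 0 arrays. The probe used lies at chr10:77542211-77542270 (mm9).

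Cd83, a marker of mature dendritic cells, had the largest spread of the 8 genes. Its level was -3.47, -5.62, -4.10 and 0.55 in the Sca-1- samples of slides 1 to 4, against -3.68, -0.71, -2.66 and -3.41 in their Sca-1+ partners. It was high in 1 sample of each group, Sca-1- replicate 4 and Sca-1+ replicate 2, the same samples that stood apart above. Its within-group SD of 2.09 exceeded that of 99.9% of tested genes, whose median SD was 0.32. The difference of 0.54 ± 1.25 (SE, n = 4 per group, 95% confidence interval -2.32 to 3.41) turned to -0.91 without both samples of replicate 2 and grew to 2.04 without those of replicate 4. On 3 of the 8 arrays the probe, at chr13:43898276-43898335 (mm9), was not well above background, so the levels there are bounds.

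Cd40, the receptor through which CD40 ligand on T cells activates dendritic cells, was likewise scattered. Its level was -3.37, -4.12, -4.81 and -1.82 in the Sca-1- samples of slides 1 to 4, against -5.33, -3.30, -3.02 and -6.05 in their Sca-1+ partners. It was well above background on 2 arrays of each group. Its within-group SD of 1.39 exceeded that of 99.4% of tested genes. The difference was -0.90 ± 0.84 (SE, n = 4 per group, 95% confidence interval -2.81 to 1.02), and it was 0.22 without both samples of replicate 4. Within slides it ran from -4.23 on slide 4 to 1.79 on slide 3. Only the Sca-1- sample was well above background on slides 1 and 4, and only the Sca-1+ sample on slides 2 and 3. The other value of each slide is a bound, so the size of these differences and of the SD is not measured. The probe lies at chr2:164897085-164897144 (mm9).

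Pdcd1lg2, which encodes PD-L2, was well above background on 1 array of each group, replicate 4 in both. Its level was -3.80, -3.11, -5.64 and -4.68 in the Sca-1- samples of slides 1 to 4, against -3.96, -3.47, -4.58 and -4.19 in their Sca-1+ partners. With no filter on dim probes the difference was 0.25 ± 0.52 (SE, n = 4 per group; limma, adjusted p = 1.00). Its probes overlap by 57 bases, of which 55 are identical, and the brighter one was used. Bases 31 to 60 of that probe and the matching 30 bases of the other are printed with the mismatches in capitals.
Pdcd1lg2, probe used: tggaagcatttaagcaacacgtCaagtGcc
Pdcd1lg2, other probe: tggaagcatttaagcaacacgtTaagtAcc
Counted from 1 at the 5′ end of the probe used, the mismatches are C53T and G58A. The other probe was well above background on 0 arrays. The probe used lies at chr19:29545470-29545529 (mm9).

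**Figure D3:**
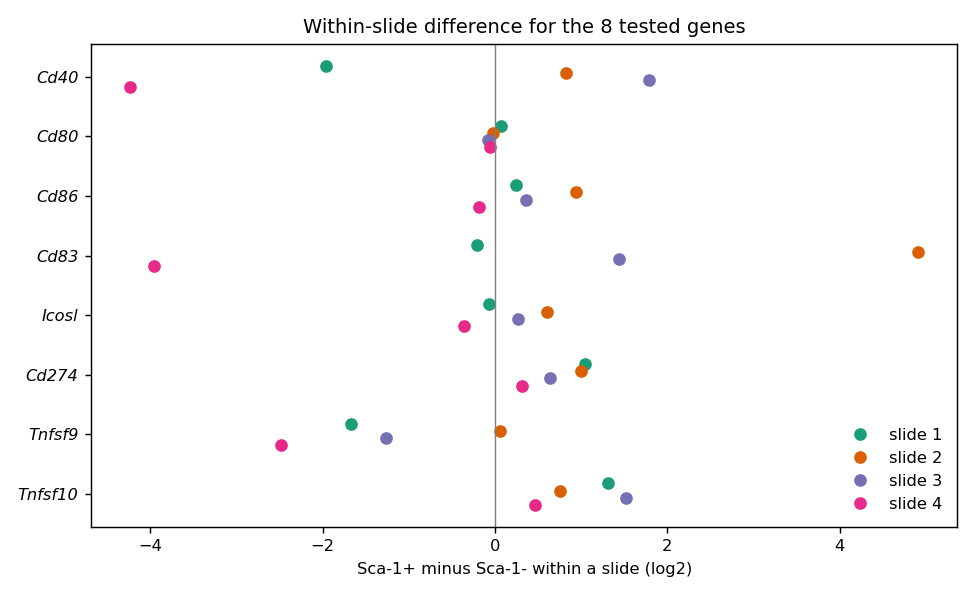
Difference within each slide (x axis, Sca-1+ minus Sca-1-, log2) for the 8 tested genes, with 1 point per slide. Cd274 and Tnfsf10 have all 4 points above 0, and slide 4 (pink) holds the lowest point for every gene other than Cd80.

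Slide 4 gave the lowest within-slide difference for 7 of the 8 genes, the exception being Cd80. Over all tested genes with a value on every array, the same slide was lowest for 19.0%. The median difference of the 8 genes was -0.27 on slide 4, 0.50 on slide 3, 0.79 on slide 2 and -0.0011 on slide 1, whereas the medians over all tested genes lay between -0.04 and 0.07. Slide 2 gave the highest difference for 4 of the 8 genes. The samples that set slides 2 and 4 apart in Cd83 are those with the high Lyz2 and Cd81 values, and the part of these markers in the result was not tested.

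Several of the costimulators moved together from sample to sample. Across the 8 arrays, which share slides in pairs, Cd83 and Cd86 correlated at r = 0.82, Cd86 and Icosl at 0.79, Cd83 and Icosl at 0.75 and Cd40 and Cd83 at 0.65. After the group means were subtracted, these 4 values were 0.90, 0.85, 0.74 and 0.76. Cd40 correlated less with Cd86 and Icosl, at 0.30 and 0.36 over the arrays and at 0.64 and 0.45 within groups. Cd40 and Cd83 were well above background on 4 and 5 of the 8 arrays, so their r values rest partly on bounds. Cd80 did not move with the other costimulators, at -0.49 with Cd86, -0.55 with Icosl, -0.36 with Cd83 and -0.10 with Cd40 over the arrays. Within groups, the Cd80 values were -0.55, -0.55, -0.35 and -0.13 in the same order. Tnfsf9 and Cd274 correlated at -0.65 over the arrays and at -0.32 within groups, whereas Tnfsf9 and Cd86 correlated at 0.06 over the arrays and at 0.87 within groups. These are descriptions over 8 arrays, with samples that stand apart among them.

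**Figure D4:**
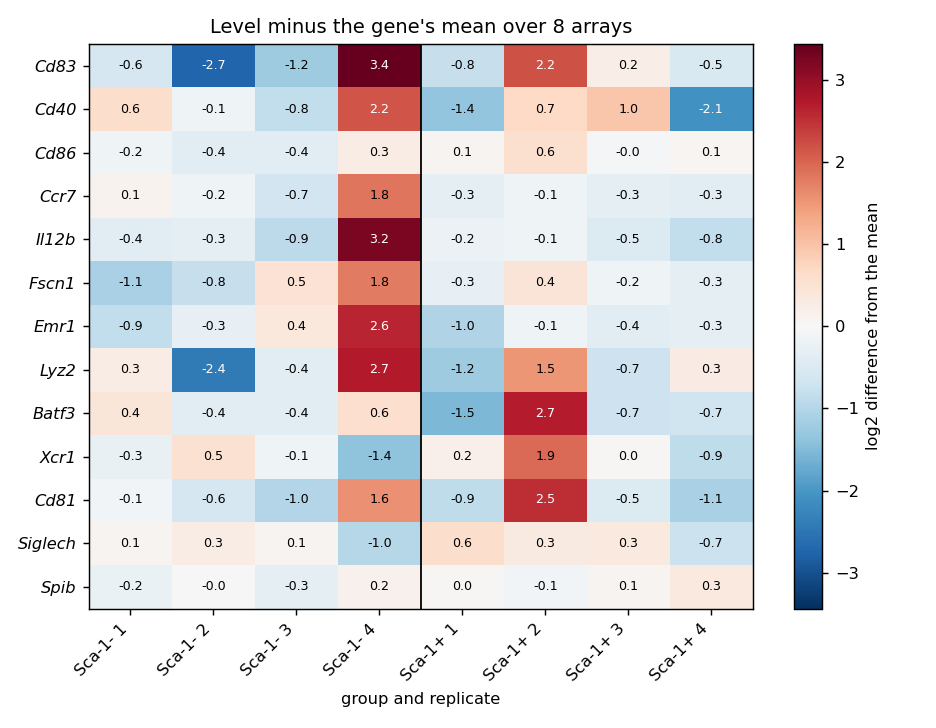
Level of selected genes minus each gene's mean over the 8 arrays (colour and printed value, log2), with samples in columns. Sca-1- replicate 4 is high in Cd83, Cd40, Ccr7, Il12b, Fscn1, Emr1 and Lyz2, and Sca-1+ replicate 2 in Cd83, Batf3, Xcr1 and Cd81. Il12b and Fscn1 were well above background on 1 Sca-1- array each and on 0 Sca-1+ arrays, and Xcr1 on 0 arrays. Of the pDC genes shown, Siglech is lowest and Spib is highest on the arrays of replicate 4.

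Of the markers of other cell types, some moved with the slide-blocked comparison. Among conventional dendritic cell markers, 10 of 12 were tested and 0 passed unpaired. With the slide as a block, the transcription factor gene Zbtb46 (-1.20) and Cd24a (-0.87) were lower, and Sirpa (0.54) and Id2 (0.54) were higher in Sca-1+ pDC. Over all tested genes, the blocked fit called 4.22% as lower and 2.16% as higher. Summed signals of that list, relative to the 75th percentile, were 186 to 197 in Sca-1- and 190 to 195 in Sca-1+ samples. Csf1r, the receptor of a macrophage growth factor, was lower by the blocked fit (-1.19), the only monocyte and macrophage marker of 6 tested to pass, and that list summed to 95.8 to 141 in Sca-1- and 110 to 143 in Sca-1+ samples. Among the 12 pDC markers, all tested, the chemokine receptor gene Ccr9 (0.55) and Lag3 (0.73) were higher by the blocked fit. Their part in the Cd274 and Tnfsf10 results was not tested.

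No B cell marker of 5 tested, T and NK cell marker of 4 or granulocyte, basophil and mast cell marker of 9 passed either fit. Detection within these lists was mixed. Of 9 B cell markers, 4 were well above background on all 8 arrays, Cd79a, Cd79b, Cd22 and Cr2, and 3, Ms4a1 and Pax5 among them, on 0 arrays. Cd22 differed by 0.46 with groups that did not overlap, higher in Sca-1+ pDC, without passing either fit. The groups were apart in that direction for 1.9% of all tested genes. Of 10 T and NK cell markers, Cd3e, Lck, Klrk1 and Nkg7 were detected on all 8 arrays, and Cd3d, Cd3g, Ncr1, Klrb1c and Eomes on 0. Of the 12 conventional dendritic cell markers, 10 were detected on all 8 arrays, Clec9a among them, and 1, Xcr1, on 0. The B cell list summed to 10.8 to 15.4 in Sca-1- and 14.8 to 17.3 in Sca-1+ samples, and the T and NK list to 10.3 to 13.5 and 12.3 to 14.2. The granulocyte, basophil and mast cell list varied most, from 4.05 to 29.8 in Sca-1- and from 3.06 to 30.7 in Sca-1+ samples.

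The regulators through which interferon is known to induce TRAIL and PD-L1 were all detected. Of 16 interferon and STAT regulators, 0 passed unpaired and 1, Irf7, passed with the slide as a block, as did 6.38% of all tested genes. Of the 16 differences, 14 were above 0, with a median of 0.10. Over all 19266 tested genes, 10644 were above 0, with a median of 0.03. The part of these regulators in the Cd274 and Tnfsf10 results was not tested. Irf7, a master transcription factor of interferon production in pDC, was at 4.08, 4.37, 3.57 and 4.23 in the Sca-1- samples of slides 1 to 4. Their Sca-1+ partners were at 4.89, 5.50, 4.61 and 4.999, above every Sca-1- sample, a separation that 1.9% of all tested genes showed. The log2 difference was 0.94 ± 0.24 (SE, n = 4 per group; limma, adjusted p = 0.140 unpaired and 0.00590 with the block).

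The genes of the death pathway downstream of TRAIL receptors had differences mostly below 0. They include genes that drive death and genes that block it, so the signs give no direction for the pathway. Of its 13 genes, all tested, 11 differences were below 0, with a median of -0.22 against 0.03 over all tested genes. Over all 19266 tested genes, 8622 differences were below 0. None passed unpaired, and 2 were lower in Sca-1+ pDC with the slide as a block, as were 4.22% of all tested genes. Among the 2 was Cycs, which encodes cytochrome c (-0.49, adjusted p = 0.0330, limma). The summed signal of the list was 123 to 150 in Sca-1- and 104 to 116 in Sca-1+ samples, ranges that did not overlap. A linear sum weighs the genes of highest signal most, Cycs among them, and does not speak for the whole list. Gene by gene, 1 of the 13 had groups that did not overlap, lower in Sca-1+ pDC, as had 5.11% of all tested genes.

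The genes of receptors that bind the 10 proteins were in part detected in the pDC themselves. Of 12 partner receptor genes, 5 were tested and 0 passed either fit, with a median difference of 0.04. Cd28, the receptor of CD80 and CD86, was at 5.002 ± 0.42 (SD) in Sca-1- and at 5.33 ± 0.32 (SD) in Sca-1+ pDC, with n = 4 each. Rgmb, a partner of PD-L2, had a difference of 0.35 and passed neither fit. The genes of CTLA-4, ICOS, CD40 ligand and the decoy TRAIL receptor Tnfrsf22 were well above background on 0 arrays.

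Of 21 genes of CD40 and NF-kB signalling, all tested, 0 passed either fit. Their differences had a median of 0.10, with 15 above 0, against 10644 of 19266 over all tested genes. The smallest unadjusted p values belonged to Nfkbie, an inhibitor of NF-kB, with a difference of 0.21, and Nfkb1, an NF-kB subunit gene, with -0.21. Of 14 other B7, nectin and checkpoint ligands, 10 were tested and 0 passed either fit, with a median of 0.01. Cd200, an inhibitory ligand, differed by 0.51. Cd48, an adhesion ligand of lymphocytes, differed by -0.29 with groups that did not overlap, as did 5.11% of all tested genes in that direction. Of 15 other TNF ligands, 3 were tested, namely Ltb (difference 0.50), Tnf (0.30) and Tnfsf12 (0.09), and 0 passed. For 9 of the 14 on the array, no sample gave a signal well above background.

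Of 13 dendritic cell maturation genes, 7 were tested. Marcksl1, which encodes a protein of the MARCKS family, was the only one to pass unpaired. It was at -1.65, -2.59, -2.55 and -1.28 in the Sca-1- samples of slides 1 to 4, against -3.87, -3.87, -4.74 and -4.26 in their Sca-1+ partners. It met the filter on dim probes through the Sca-1- samples, with 1 of 4 Sca-1+ arrays well above background, so its level on the other 3 is only a bound. The fitted log2 difference was -2.17 ± 0.34 (SE, n = 4 per group; limma, adjusted p = 0.0169 unpaired and 0.0120 with the block), a value that rests on those dim signals. Il4i1, an amino acid oxidase gene of mature dendritic cells, passed with the block alone, higher in Sca-1+ pDC by 0.94 (limma, adjusted p = 0.0307). Differences of the list thus ran in both directions, with 6 of 7 below 0, against 8622 of 19266 over all tested genes. Their median was -0.09, close to 0. Of 9 genes for surface turnover of CD86 and PD-L1, all tested, 0 passed either fit. The smallest unadjusted p values there belonged to Cmtm4, a stabiliser of PD-L1 at the surface, at -0.78, and to the signalosome subunit gene Cops5, at -0.19.

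Genes whose levels followed the 2 members with the smallest unadjusted p were sought among the 17221 other genes detected well above background in every sample. The highest correlations with Tnfsf10 over the 8 arrays were those of Fbxo6 (r = 0.99), a probe without a gene symbol (A_55_P2108483, r = 0.99) and Evi2a (r = 0.98). For Tnfsf9 they were those of P2rx5 (r = 0.99), Tnfaip2 (r = 0.96) and S1pr2 (r = 0.94). Values of r picked as the highest of so many genes are high by that choice, and these 6 passed neither fit.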

How the data were processed

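Per the file headers, the authors extracted linear spot intensity in version 10.7.3.1 of Agilent Feature Extraction, and positions are on mm9. The deposited processed intensity was already background-corrected. The authors' deposited value table holds log2 values with a median of 3.90 in every column, which correlated with the log2 signal of their arrays at 0.998 to 1.00. The sources used here do not give its normalization.

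Of 62976 spots per array, 59305 were non-control. Control and outlier spots (105 to 162 per array) were left out, 0 were saturated, repeated spots were averaged, and from every log2 value the 75th percentile of its array was subtracted. The replicate 4 arrays use a later design version, whose gene names were applied to all arrays. The number of arrays limits the precision.

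The comparison used limma 3.58.1 under R 4.3.3 (two-sided, Benjamini-Hochberg, threshold 0.05), tested on simulated data beforehand. Of 100 simulated log2 changes of 1, the unpaired fit recovered 49 and the blocked fit 4. Of 100 changes of 2, they recovered 83 and 56. The simulated data held no slide effect, so they do not check the blocked fit on samples that share a slide. Deviations of same-numbered samples, which share a slide per the file headers, correlated at 0.44, 0.43, 0.64 and 0.89. All exceed 0.1, so numbers were treated as pairs in the alternative with the slide as a block. Among replicates 1 to 3, samples of different numbers also correlated, at 0.12 to 0.54, so the threshold of 0.1 does not single out the pairs. Replicate 4 samples correlated with samples of other numbers at -0.72 to -0.38.

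The members and lists were chosen with earlier results of these data known. Besides the 10 members, named genes are those called in either fit, the 2 of each pathway list with the smallest unadjusted p, 3 genes most like each of 2 members, Ly6a, and those said to be singled out after their values were seen. Markers named for their detection, Tnfsf12, Siglech and Spib were also named after that. Some genes that meet this rule are not reported here. Figures used matplotlib 3.10.9 in Python 3.11.15.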

Additional observations from a re-analysis of the deposited data

How the results depend on the processing

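The count of the 10 genes past the threshold was 0 in the unpaired fit, 2 with the slide as a fixed block and 3 with the slide as a random block, which used a correlation of 0.75 between samples of a slide. The replicate block changed no other call among the 8 tested genes. Leaving out samples gave counts from 0 to 2. The counts were 0 under normexp, quantile normalization, another scaling point, other filters on dim probes, the mean over probes and the deposited table. Across all alternatives, Cd274 stayed between 0.49 and 0.94, with adjusted p from 0.0158 to 1.00. Tnfsf10 stayed between 0.61 and 1.19 (0.00644 to 0.962) and Tnfsf9 between -1.81 and -0.83 (0.0332 to 1.00).

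Signs turned for genes that passed no fit. The Cd80 difference was 0.0193 with quantile normalization and 0.0190 in the deposited table. It moved furthest with the mean over both of its probes, to -0.39 (limma, adjusted p = 0.978), where the dim probe counts as much as the bright one. The Cd83 difference was -0.17 with normexp. Leaving out samples gave Cd80 from -0.0896 to 0.0626, Cd83 from -0.91 to 2.04, Cd40 from -1.79 to 0.22 and Icosl from -0.0569 to 0.28. It gave Cd274 from 0.52 to 0.94, Cd86 from 0.14 to 0.52, Tnfsf10 from 0.77 to 1.19 and Tnfsf9 from -1.81 to -0.96. The cause was not tested. Over all genes, there were 182 calls with no filter on dim probes (34844 tested) and 336 with it (19266 tested). Over all genes, the slide as a fixed block gave 1230 calls and as a random block 2277. Signal over background limits Cd40, Cd83, Pdcd1lg2 and Tnfsf4.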
